A study of Hydra vulgaris with 30 samples.

Results

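In regenerating tips of the cnidarian *Hydra vulgaris*, 72 of 51290 transcripts fell below their DMSO level at 3, 8 and 12 hours postamputation (hpa) under UNC0379, without a strong difference at 0 hpa and without a clear induction in the DMSO controls. UNC0379 inhibits SETD8 (KMT5A), the enzyme that places a single methyl group on lysine 20 of histone H4. The 72 transcripts were chosen on group means of CPM, the counts scaled to a common total of reads assigned to transcripts. The mean of 3 libraries had to reach 30 CPM in DMSO at one time at least. The log2 ratio of UNC0379 over DMSO, with 5 CPM added to each mean, had to average -1 or less over 3, 8 and 12 hpa and to lie above -0.7 at 0 hpa. The log2 change of the DMSO mean since 0 hpa, averaged over 8 and 12 hpa, had to lie below 0.7. Of the 51290 transcripts, 3325 reached 30 CPM in DMSO and 225 of these met the limit on the averaged ratio. The 72 are what was left of the 225 after 130 that were already lower at 0 hpa and 23 that rose in DMSO.

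Polyps of a single clonal culture of strain Ind-Pune were treated with UNC0379 or with 0.2% DMSO, the vehicle, and decapitated. Tips were taken right after the cut (0 hpa) and at 4 later times, from 3 to 24 hpa. The 10 groups had 3 libraries each, 30 in all. The labels give the UNC0379 dose as 150 µM in one field and with the unit mM in another. No genetic change was made in any group, and the labels do not say whether libraries of 1 group are separate cultures, so that p-values measure only the spread between these libraries, which may be technical. The length of the treatment before decapitation is not given for these libraries. Where it continued after the cut, as in the study's regeneration assays, a later time is also a longer exposure, and time after the cut and time in the inhibitor cannot be told apart.

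*Hydra* regrows a head from the upper end of a decapitated body column. Wound closure by the epithelial layers comes first, and Wnt/β-catenin signalling at the tip then sets up the head organizer, from which hypostome and tentacles form. SETD8 is the only enzyme known to monomethylate lysine 20 of histone H4, a mark tied to chromatin compaction and to both low and high transcription, depending on the gene. The limit on the DMSO change keeps out transcripts clearly higher in the controls at 8 and 12 hpa on average. It sets no lower bound. In 60 of the 72 the DMSO mean was within 0.7 of its 0 hpa level, on the log2 scale, at 3, 8 and 12 hpa alike. 9 of the 72 were still higher in DMSO by 0.7 or more on the log2 scale at 3, 8 or 12 hpa, among them Sc4wPfr_1086.g6578.t1, with DMSO means of 56.7 CPM at 3 hpa and 23.5 CPM at 0 hpa, an example picked out after its values were seen.

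None of the identifiers could be paired with a gene name in the reference gene table, so that no role can be given for any of the 72 and the tissue could not be checked against marker genes of its cell types. In whole tips, fewer cells of a type and less RNA per cell cannot be told apart. 60 of the 72 identifiers are of the Sc4wPfr kind, written as a scaffold and a gene number, and 12 are of the MSTRG kind. MSTRG identifiers made up 16.7% of the 72, against 23.8% of all 3325 transcripts of 30 CPM or more. 65 of the 72 were the only transcript of their gene model, 90.3% against 93.5% of the 3325.

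The libraries held 146798 to 811079 assigned reads, with a median of 515933, and the 72 transcripts together took 556 to 17046 of them. 3 libraries are called those that stand apart, a choice made after seeing the data. UNC0379 24 hpa replicate 3 had the fewest reads, and its median absolute log2 distance from the other 2 libraries of its group was 1.05 over the transcripts tested. UNC0379 0 hpa replicate 3 had a distance of 0.48. DMSO 24 hpa replicate 3 had a distance of 0.40, and 98.2% of its reads were not aligned. The other UNC0379 libraries at 24 hpa were also far from each other, with distances of 0.47 and 0.61, and DMSO 0 hpa replicate 2 had one of 0.41. The main counts at 0 and 24 hpa are given with and without the 3 libraries.

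The 72 transcripts took a smaller share of the reads under UNC0379 at every time. At 0 hpa the share was 1.59% ± 0.13 under UNC0379 and 1.84% ± 0.28 in DMSO (mean and SD of 3 libraries). The summed level at 0 hpa was 16583, 16614 and 14356 CPM in the UNC0379 libraries, against 16935, 21616 and 16650.0 CPM in the DMSO libraries, which is close but without overlap. At 3 hpa it was 0.722% ± 0.016 under UNC0379 and 2.34% ± 0.053 in DMSO. At 8 hpa it was 0.637% ± 0.022 under UNC0379, against 2.11% ± 0.037 in DMSO, and at 12 hpa 0.868% ± 0.020 under UNC0379, against 1.96% ± 0.025 in DMSO. These values chose the transcripts and carry no test. At 24 hpa, a time whose UNC0379 libraries the choice did not use, the share was 0.604% ± 0.197 under UNC0379 and 1.80% ± 0.16 in DMSO. The summed level at 24 hpa was 6875, 7452 and 3788 CPM in the UNC0379 libraries, against 19455, 18191 and 16223 CPM in the DMSO libraries. The groups did not overlap, and the lowest UNC0379 value was that of replicate 3. The 6 transcripts with the highest level in DMSO made up 58.7% of the 72 transcripts' reads in DMSO, so that the summed share follows mostly these few.

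**Figure D1:**
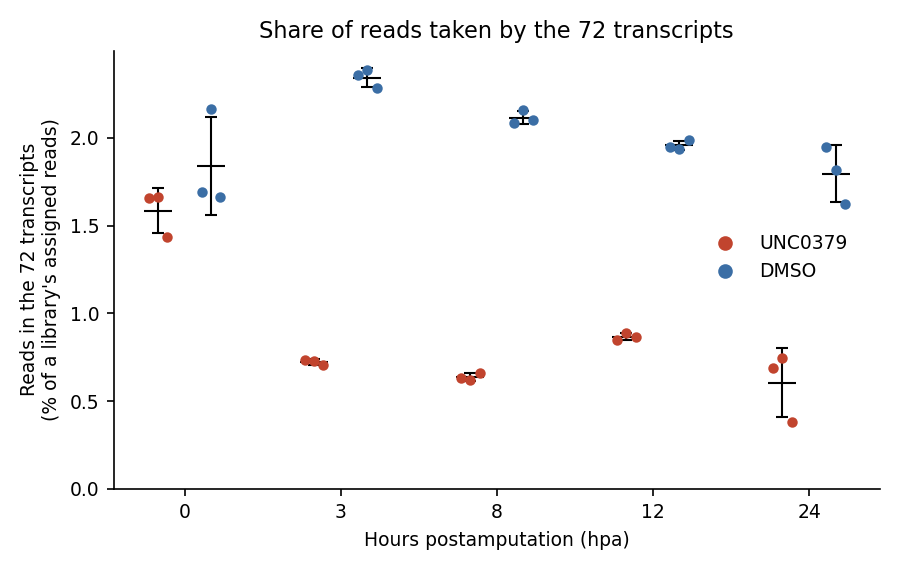
Share of a library's assigned reads that fell on the 72 transcripts (%, vertical axis) at each time after decapitation (hpa, horizontal axis), UNC0379 left of DMSO. Points are libraries, and the bar and whiskers are the mean and SD of 3. From 3 hpa on, the UNC0379 means lie between 0.604% and 0.868% and the DMSO means between 1.80% and 2.34%.

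Taken one by one, the transcripts differed in when they were lowest relative to DMSO. The median log2 ratio of UNC0379 over DMSO was -1.74 at 3 hpa and -1.50 at 8 hpa, then -1.37 at 12 hpa. It was -1.52 at 24 hpa. The ratio was lowest at 3 hpa in 42 transcripts, with 21 lowest at 8 hpa and 9 at 12 hpa, among the 3 times that chose them. With 24 hpa counted too, it was lowest at 3 hpa in 29, at 8 hpa in 14, at 12 hpa in 6 and at 24 hpa in 23. In 49 it was -1 or less at each of these 3 times. The highest UNC0379 library was below the lowest DMSO library in 70 of the 72 at 3 hpa (11.7% of the 5046 transcripts tested), in 67 at 8 hpa (12.2% of those tested) and in 66 at 12 hpa (14.0% of those tested). The choice fixes these counts, and they are given as a description.

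The limits on the ratio at 0 hpa, on the averaged ratio and on the DMSO change together favour a UNC0379 mean below its own 0 hpa level, and the changes up to 12 hpa are therefore given as a description. Relative to its own 0 hpa level, the UNC0379 mean had a median log2 change of -1.15 at 3 hpa and -1.10 at 8 hpa, then of -0.97 at 12 hpa, and -1.27 at 24 hpa. The DMSO mean had a median log2 change of 0.16 at 3 hpa and 0.12 at 8 hpa, then of -0.01 at 12 hpa, and -0.05 at 24 hpa. In 56 of the 72 the UNC0379 mean was at -0.7 or less by 3 hpa, and in 69 it was below its 0 hpa level at 3, 8 and 12 hpa alike. In 60 of the 72 the DMSO mean stayed within 0.7 of its 0 hpa level at 3, 8 and 12 hpa alike. At 24 hpa, which the choice did not limit, 58 were within 0.7 in DMSO, 50 of them among those 60, 10 were lower by 0.7 or more and 4 were higher by as much.

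**Figure D2:**
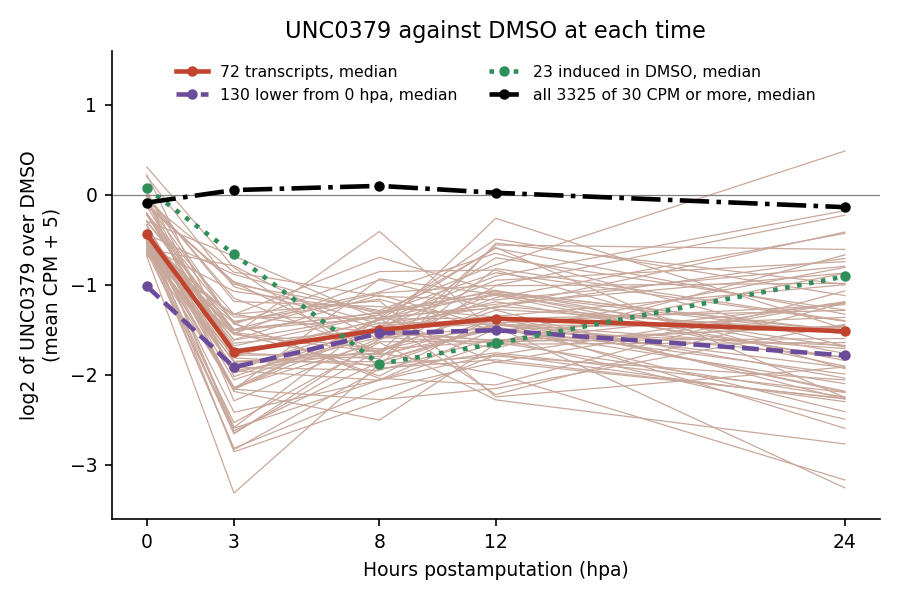
Log2 ratio of the UNC0379 mean over the DMSO mean, with 5 CPM added to each (vertical axis), against hours postamputation (horizontal axis). Thin lines are the 72 transcripts, and thick lines are medians of these, of the 130 already lower at 0 hpa, of the 23 induced in DMSO and of all 3325 transcripts of 30 CPM or more. The median of the 72 goes from -0.44 at 0 hpa to -1.74 at 3 hpa and is -1.52 at 24 hpa.

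A start at equal levels is true of only some of the 72. The median log2 ratio of UNC0379 over DMSO at 0 hpa was -0.44, beside -0.09 for all 3325 transcripts of 30 CPM or more. It was below 0 in 67 of the 72 (93.1%), against 58.8% of the 3325. 43 of the 72 lay at -0.35 or below and 29 above it, and 13 were within 0.15 of no difference. All 3 UNC0379 libraries were already below all 3 DMSO libraries at 0 hpa in 20 of the 72, where 13.1% of the transcripts tested were, and 1 transcript was above in all 3. Without the 3 libraries that stand apart, 59 of the 72 had a ratio below 0 at 0 hpa, against 58.0% of the 3325, and in 32 no UNC0379 library reached a DMSO library, where 21.4% of the transcripts tested were so. Without DMSO 0 hpa replicate 2, 64 had a ratio below 0, against 60.6% of the 3325, and in 28 no UNC0379 library reached a DMSO library, against 26.1% of the transcripts tested. With TMM library sizes, which leave out transcripts of extreme ratio or level when libraries are scaled to each other, the median ratio of the 72 at 0 hpa was -0.33. Under this scaling 58 were below 0, against 47.4% of the 3325, and 10 had no overlap (13.9%), against 10.1% of the transcripts tested, a share near the background. This scaling moved the median of all 3325 transcripts by more than 0.1 on the log2 scale at 0 hpa, to 0.03 from -0.09, and at 8 hpa, to -0.02 from 0.10. The ratio at 0 hpa was limited by the choice, so that all these values are a description.

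No gap in the data set the 72 apart from their neighbours at 0 hpa. Among transcripts that met the other limits, 28 lay above -0.7 and up to -0.5 at 0 hpa, and 34 lay above -0.9 and up to -0.7. Just inside the limit were Sc4wPfr_501.g11106.t1 at -0.68 and Sc4wPfr_324.1.g5466.t1 also at -0.68, and just outside it were Sc4wPfr_259.g33632.t1 and Sc4wPfr_381.1.g32192.t1, both at -0.71. At the limit on the averaged ratio, Sc4wPfr_641.g16853.t1 at -1.02 and Sc4wPfr_324.1.g5466.t1 at -1.03 were inside, and MSTRG.9721.1 at -0.9998 and MSTRG.7879.1 at -0.997 were outside. 9 transcripts lay within 0.1 inside this limit and 21 within 0.1 outside it.

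**Figure D3:**
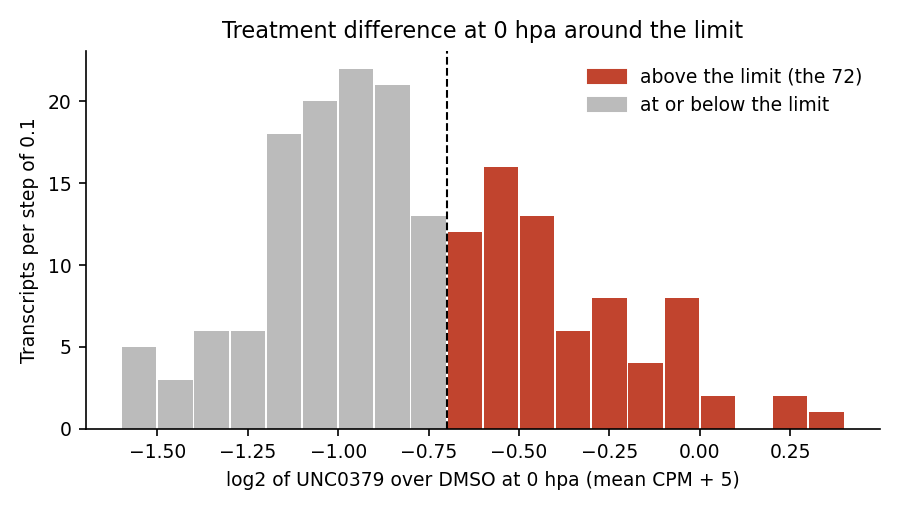
Number of transcripts (vertical axis) by the log2 ratio of UNC0379 over DMSO at 0 hpa (horizontal axis, steps of 0.1), for transcripts that met every other limit. Red bars are the 72, grey bars transcripts at or below the limit of -0.7 (dashed line), of which 9 at -1.6 or below are not drawn. The steps next to the limit hold 12 transcripts above it and 13 below it.

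One transcript beyond the limit at 0 hpa has a gene name in the study, where a picture of its locus is labelled dickkopf-related protein 3. That name is of the Dickkopf family, secreted proteins best known in vertebrates as modulators of Wnt signalling. The transcript, Sc4wPfr_504.g10351.t1, had a log2 ratio of -0.75 at 0 hpa, beyond the limit, and an averaged ratio of -1.85 over 3, 8 and 12 hpa. At 0 hpa it had 28.0, 39.2 and 84.8 CPM in the UNC0379 libraries, against 94.6, 80.4 and 91.1 CPM in DMSO. The UNC0379 library that overlapped DMSO was replicate 3, one of those that stand apart. At 24 hpa it had 25.2, 10.7 and 34.1 CPM in the UNC0379 libraries, against 82.3, 89.8 and 107 CPM in DMSO, with no overlap. The edgeR log2 fold change at 24 hpa was -2.24 ± 0.42 (SE, adjusted p = 0.000344). The call is lost when only the 6 libraries of 24 hpa are fitted (adjusted p = 0.082).

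Whether the transcripts were still low at 24 hpa is the comparison that the choice left free: no UNC0379 library of 24 hpa entered it, and all 72 would reach 30 CPM in DMSO without that time. All 72 passed the filter on low counts. By edgeR's quasi-likelihood test with Benjamini-Hochberg adjustment over the 5046 transcripts tested, 51 of the 72 were lower under UNC0379 at 24 hpa, where 5.31% of all transcripts tested were. 0 of the 72 were higher, where 2.08% of all transcripts tested were. At an unadjusted p under 0.05, 0 of the 72 were higher, where 393 of the 5046 transcripts tested were. At the same limit 64 were lower, where 10.4% of all transcripts tested were. DESeq2 and limma-voom also called 0 of the 72 higher, and the share of all transcripts that they called higher was not computed. The fitted log2 fold change was below 0 in 71 of the 72, with a median of -1.86, beside -0.02 over all 5046. Without 2 transcripts at 0 counts in all 3 UNC0379 libraries the median was -1.83. Of the 3251 transcripts tested that reached 30 CPM in DMSO and are not among the 72, 193 were lower, 5.94%. The test takes the spread of a transcript from all 30 libraries. The UNC0379 libraries of 24 hpa had distances of 0.47, 0.61 and 1.05 from the others of their group, against 0.25, 0.24 and 0.23 at 12 hpa. The p-values at 24 hpa thus rest partly on the smaller spread of other times and may be too small.

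The groups at 24 hpa did not overlap in 56 of the 72, with UNC0379 below DMSO, against 11.0% of all transcripts tested. The 56 include MSTRG.9827.1, which had no UNC0379 read and 4 DMSO reads at 24 hpa, too few to show a difference. In 0 of the 72 was UNC0379 above without overlap, where it was in 282 of the 5046 transcripts tested. Without the 3 libraries that stand apart, 52 were lower by the same test, where 5.74% of the 5226 transcripts then tested were, and 47 of the 52 were among the 51. Among the libraries left 66 had no overlap, against 22.7% of all transcripts tested. The log2 ratio of the means at 24 hpa was -1 or less in 56 of the 72, where 10.8% of the 3325 transcripts of 30 CPM or more were, and in as many without the 3 libraries that stand apart. With all libraries it was lower than the average over 3, 8 and 12 hpa in 36. The count of calls was smaller in 2 other fits, both with fewer transcripts tested. The fit on the 6 libraries of 24 hpa also takes its spread from these libraries alone. What lowered the counts was not tested. When only the 6 libraries of 24 hpa were fitted, 10 of 52 tested were lower, where 2.08% of the 3070 transcripts then tested were, with a median log2 fold change of -1.81. With all libraries thinned to the depth of the shallowest, 7 to 15 of the 51 to 57 tested were lower over 25 random draws, where 1.14% to 1.95% of all transcripts then tested were, with medians from -1.97 to -1.42.

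**Figure D4:**
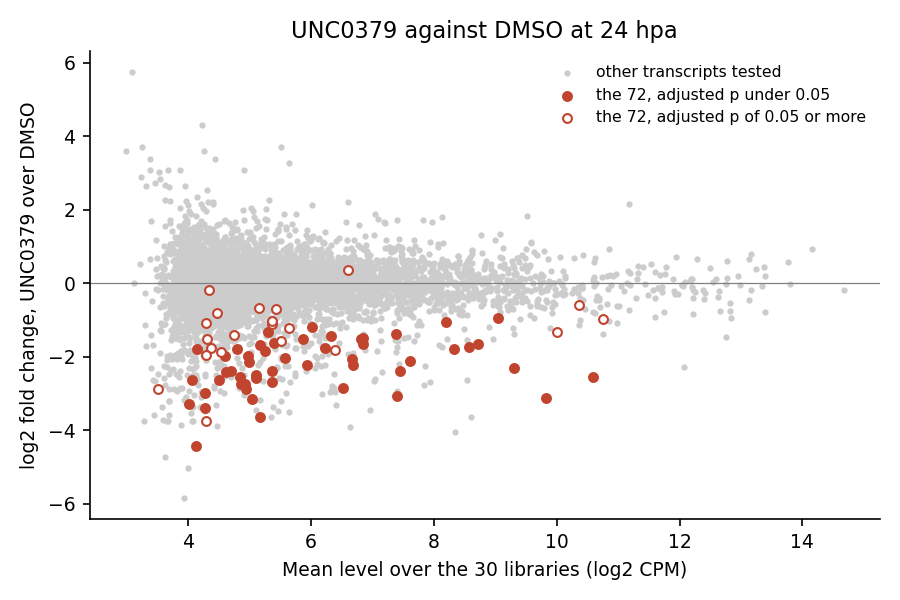
Log2 fold change of UNC0379 over DMSO at 24 hpa (vertical axis) against the mean level over the 30 libraries (horizontal axis, log2 CPM), for the 5046 transcripts tested. Filled red points are the 51 of the 72 called lower, open red points the other 21. All but 1 of the 72 lie below 0.

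The 72 were compared at 24 hpa with the 2 most similar groups of transcripts, which share all libraries with them. Of the 130 already lower at 0 hpa, 110 were lower at 24 hpa (84.6%) with a median log2 fold change of -2.23, and of the 23 induced in DMSO 9 were (39.1%), with a median of -0.98. The 72 lay between them, at 70.8% and -1.86, and whether the groups of transcripts differ was not tested. Within the 72 the share called differed with the ratio at 0 hpa, a difference that was not tested: 35 of the 43 at -0.35 or below at 0 hpa were lower at 24 hpa, with a median of -2.03, and 16 of the 29 above -0.35, with a median of -1.63. By level, 28 of the 43 whose highest DMSO mean was under 100 CPM were lower, and 23 of the 29 at 100 CPM or more. Without the 3 libraries that stand apart, 107 of the 130 and 10 of the 23 were lower. Of the 72, 33 of the 43 at -0.35 or below at 0 hpa and 19 of the 29 above it were then lower, and by level 25 of the 43 under 100 CPM and 27 of the 29 at 100 CPM or more.

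The 3 transcripts called lower at 24 hpa with the smallest p all fell by more than 2 on the log2 scale. MSTRG.26010.2 had 20.6, 16.9 and 27.2 CPM in the UNC0379 libraries at 24 hpa, against 142, 164 and 128 CPM in DMSO, with a log2 fold change of -2.85 ± 0.28 (SE, edgeR adjusted p = 2.55e-09). The 3 UNC0379 libraries were all low, with replicate 3 the highest of them. At 0 hpa the same transcript had 108, 114 and 97.2 CPM under UNC0379 and 166, 178 and 149 CPM in DMSO, without overlap. MSTRG.23904.5 had 57.3, 36.8 and 0 CPM in the UNC0379 libraries at 24 hpa, against 317, 352 and 296 CPM in DMSO, with a log2 fold change of -3.07 ± 0.30 (adjusted p = 2.92e-09 by edgeR). In the shallow replicate 3 a count of 0 allows up to 20.4 CPM. Sc4wPfr_884.g31952.t1 had 43.5, 46.0 and 40.9 CPM in the UNC0379 libraries at 24 hpa, against 274, 240 and 186 CPM in DMSO, with a log2 fold change of -2.39 ± 0.25 (edgeR adjusted p = 1.24e-08). Its DMSO level was itself lower at 24 hpa, with a mean of 233 CPM at 24 hpa and 399 CPM at 0 hpa. Fitted on the 6 libraries of 24 hpa alone, MSTRG.23904.5 had an adjusted p of 0.051, and the other 2 calls held.

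Among the 5 transcripts with the highest level in DMSO, MSTRG.14146.2 had the highest. It had 805, 868 and 801 CPM in the UNC0379 libraries at 3 hpa, against 3356, 3581 and 3398 CPM in DMSO. At 0 hpa it had 2218, 2256 and 2161 CPM under UNC0379 and 2730, 3663 and 2469 CPM in DMSO, the groups not overlapping. At 24 hpa it had 646, 625 and 61.3 CPM in the UNC0379 libraries, against 2676, 2767 and 2680 CPM in DMSO. Replicate 3 was again the lowest UNC0379 library, and the other 2 alone were far below DMSO. Its log2 fold change at 24 hpa was -2.54 ± 0.33 (SE, edgeR adjusted p = 1.94e-06), and the adjusted p was 0.135 when only the 6 libraries of 24 hpa were fitted.

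Sc4wPfr_1007.g33053.t1 began at no difference, with a log2 ratio of 0.00 at 0 hpa from libraries far apart: 1918, 2167 and 457 CPM under UNC0379 and 1037, 2084 and 1422 CPM in DMSO. At 3 hpa it had 508, 541 and 449 CPM under UNC0379, against 2615, 2496 and 2269 CPM in DMSO, a clear separation. At 24 hpa it had 52.7, 210 and 27.2 CPM in the UNC0379 libraries, against 1885, 727 and 285 CPM in DMSO, with no overlap although the DMSO libraries themselves spread widely. The log2 fold change at 24 hpa was -3.11 ± 0.61 (SE, edgeR adjusted p = 0.00136). The lowest UNC0379 library at 0 hpa and the lowest library of each group at 24 hpa are the 3 that stand apart, and without them the log2 fold change was -3.24 (edgeR adjusted p = 0.000111). With 1 library of 24 hpa left out at a time it ran from -4.43 without UNC0379 replicate 2 to -2.19 without DMSO replicate 1, and all 6 fits called it. Fitted on the 6 libraries of 24 hpa alone, the adjusted p was 0.155.

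The other 3 of the 5 most abundant did not pass the test at 24 hpa. Sc4wPfr_1100.g15590.t1 was the 1 transcript of the 72 with all UNC0379 libraries above DMSO at 0 hpa, at 2126, 2513 and 2639 CPM under UNC0379 and 1851, 1970 and 2047 CPM in DMSO. It was lowest at 8 hpa, with 690, 725 and 634 CPM under UNC0379, against 2204, 2932 and 2603 CPM in DMSO. At 24 hpa it had 1889, 1988 and 123 CPM in the UNC0379 libraries, against 2928, 2940 and 2121 CPM in DMSO, and the log2 fold change was -0.97 ± 0.42 (SE, edgeR adjusted p = 0.198). The groups do not overlap here, and replicate 3 lies far below the other UNC0379 libraries. Without this library alone the log2 fold change was -0.45 (edgeR adjusted p = 0.119), no call. Without the 3 libraries that stand apart the log2 fold change was -0.60 with an adjusted p of 0.00766. Sc4wPfr_39.g20552.t1 had 774, 1064 and 559 CPM in the UNC0379 libraries at 24 hpa, against 1556, 1250 and 851 CPM in DMSO, with a log2 fold change of -0.58 ± 0.21 (edgeR adjusted p = 0.0995). Its groups overlapped at 24 hpa, and at 8 hpa they had been 638, 623 and 630.4 CPM under UNC0379 and 2164, 2177 and 2081 CPM in DMSO. With UNC0379 24 hpa replicate 2 left out, with DMSO 24 hpa replicate 3 left out, or without the 3 libraries that stand apart, this transcript passed, with adjusted p of 0.0143, 0.0263 and 0.00669. Without UNC0379 24 hpa replicate 3 the log2 fold change was -0.39 (edgeR adjusted p = 0.306), and without DMSO 24 hpa replicate 1 also -0.39 (0.506). Sc4wPfr_74.g18531.t1 had 589, 711 and 13.6 CPM in the UNC0379 libraries at 24 hpa, against 1506, 1279 and 701 CPM in DMSO, with a log2 fold change of -1.33 ± 0.49 (edgeR adjusted p = 0.119). It overlapped in the highest UNC0379 library alone, and it passed in DESeq2 (adjusted p = 0.0363) and without the 3 libraries that stand apart (adjusted p = 0.0112). Without UNC0379 24 hpa replicate 3 alone the log2 fold change was -0.82 and there was no call (edgeR adjusted p = 0.165).

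**Figure D5:**
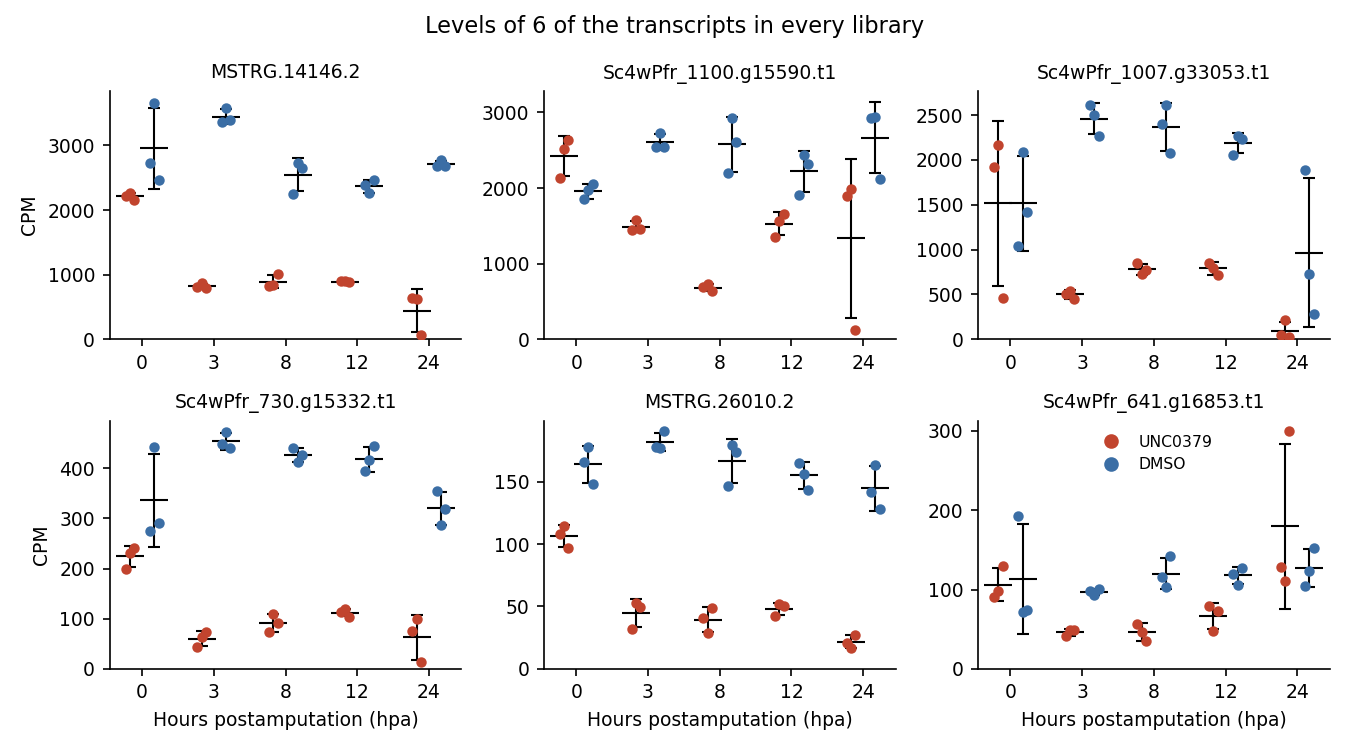
Level (CPM, vertical axes, each from 0) of 6 of the 72 transcripts in every library at each time (hpa, horizontal axes), UNC0379 left of DMSO. Points are libraries, bars and whiskers the mean and SD of 3. In MSTRG.14146.2, Sc4wPfr_730.g15332.t1 and MSTRG.26010.2 the UNC0379 libraries stay below DMSO at every time. Sc4wPfr_641.g16853.t1 is not below DMSO at 24 hpa.

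The lowest averaged ratios over 3, 8 and 12 hpa were -2.33 in Sc4wPfr_501.g11106.t1, -2.31 in Sc4wPfr_589.g5994.t1, -2.28 in Sc4wPfr_730.g15332.t1, -2.20 in Sc4wPfr_6.1.g638.t1 and -2.17 in Sc4wPfr_197.g11030.t1. Sc4wPfr_730.g15332.t1 had the highest level of these in DMSO, with group means between 320.4 and 454 CPM over the 5 times. At 3 hpa it had 44.2, 62.6 and 73.9 CPM under UNC0379, against 449, 472 and 441 CPM in DMSO. At 24 hpa it had 75.6, 99.6 and 13.6 CPM in the UNC0379 libraries, against 354, 287 and 320 CPM in DMSO, with a log2 fold change of -2.12 ± 0.28 (SE, edgeR adjusted p = 8.19e-07). No library of either group overlapped at any of the 5 times, 0 hpa included, where it had 200, 232 and 241 CPM under UNC0379 and 276, 442 and 290 CPM in DMSO. Fitted on the 6 libraries of 24 hpa alone, the adjusted p was 0.0838.

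Sc4wPfr_197.g11030.t1 was at a few CPM under UNC0379 at 3 hpa. At 3 hpa it had 3.16, 4.04 and 5.47 CPM under UNC0379, against 69.7, 36.7 and 75.5 CPM in DMSO. At 24 hpa it had 11.4, 6.13 and 6.81 CPM in the UNC0379 libraries, against 19.9, 83.0 and 62.4 CPM in DMSO, with a log2 fold change of -2.75 ± 0.56 (SE, edgeR adjusted p = 0.000844). The groups did not overlap, and the lowest DMSO library came near the highest UNC0379 one.

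The other 3 of these were less firm at 24 hpa. Sc4wPfr_589.g5994.t1 had 0, 13.8 and 102 CPM in the UNC0379 libraries, against 115, 74.1 and 94.4 CPM in DMSO, with a log2 fold change of -2.03 ± 0.60 (SE, edgeR adjusted p = 0.0348). The value of replicate 3 lies within the DMSO range, and the call is lost in DESeq2 (adjusted p = 0.129), with upper-quartile normalization (0.0543), in the 6 libraries of 24 hpa alone (0.704), and without replicate 1 or 2 of UNC0379 (0.159 and 0.163) or replicate 1 or 3 of DMSO (0.0914 and 0.0600) at 24 hpa. Without UNC0379 24 hpa replicate 3 the log2 fold change was -3.50 (edgeR adjusted p = 3.93e-06), as it was without the 3 libraries that stand apart (2.49e-06), and limma-voom called it (0.000350). Sc4wPfr_6.1.g638.t1 had 0, 1.53 and 0 CPM in the UNC0379 libraries, which is 1 read in all, against 9.97, 13.5 and 6.40 CPM in DMSO, with a log2 fold change of -3.27 ± 0.95 (edgeR adjusted p = 0.0263). This size depends on the prior count of the fit. The ratio of the pooled levels was 0.0850 with a 95% exact counting interval of 0.00201 to 0.559. The call is lost in DESeq2 (adjusted p = 0.0820), in limma-voom (0.0787), and without replicate 1 or 3 of UNC0379 (0.123 and 0.0537) or replicate 1 or 2 of DMSO (0.0565 and 0.113). Without UNC0379 replicate 2, which holds the 1 read, the fitted value was -5.50. Sc4wPfr_501.g11106.t1 had 4.58, 41.4 and 0 CPM in the UNC0379 libraries, against 155, 58.4 and 25.6 CPM in DMSO, with a log2 fold change of -1.81 ± 0.70 and no call (edgeR adjusted p = 0.139). The groups overlap through UNC0379 replicate 2, without which the adjusted p was 0.0198 and the log2 fold change -4.41. The adjusted p was 0.0388 without DMSO 24 hpa replicate 3, 0.0224 in DESeq2 and 0.0252 without the 3 libraries that stand apart. It was 0.353 in limma-voom, and without DMSO 24 hpa replicate 1 the log2 fold change was -0.91 (edgeR adjusted p = 0.666).

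The transcripts whose 24 hpa change was nearest 0 were Sc4wPfr_39.g20552.t1, described above, Sc4wPfr_641.g16853.t1 and Sc4wPfr_68.g2329.t1. Sc4wPfr_641.g16853.t1 is the 1 transcript of the 72 with a fold change above 0. It had 128, 110 and 300.0 CPM in the UNC0379 libraries at 24 hpa, against 105, 123 and 152 CPM in DMSO, with a log2 fold change of 0.37 ± 0.32 (SE, edgeR adjusted p = 0.602). The groups overlap and the high UNC0379 value is that of replicate 3, without which the log2 fold change was -0.10. At 3 hpa it had 41.0, 48.5 and 49.3 CPM under UNC0379, against 98.1, 92.8 and 101 CPM in DMSO, and the groups were separate.

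Sc4wPfr_68.g2329.t1 was low in both groups at 24 hpa, with 0, 4.60 and 0 CPM in the UNC0379 libraries, against 2.49, 2.24 and 3.20 CPM in DMSO, where at 3 hpa DMSO had 43.9, 60.4 and 25.2 CPM. With 3 and 4 reads behind them, the ratio of the pooled levels at 24 hpa was 0.893, with a 95% exact counting interval of 0.131 to 5.28. 2 others behaved in the same way and were picked out after their values were seen. MSTRG.9827.1 and Sc4wPfr_850.1.g5694.t1 had 0 counts in all 3 UNC0379 libraries and 4 and 2 reads over the 3 DMSO libraries, DMSO means of 2.94 and 1.66 CPM. 3 counts, the limit that a count of 0 allows per library, are worth 20.4 CPM in the shallowest of these UNC0379 libraries and 4.60 CPM in the deepest, so that a difference was not detectable in these transcripts at this depth. At 24 hpa 20 of the 72 were at 0 counts in UNC0379 replicate 3, 7 in replicate 1 and 2 in replicate 2, and 1 of the 72 was at 0 in any DMSO library.

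The transcripts at the limits were also tested at 24 hpa. Sc4wPfr_324.1.g5466.t1, just inside both limits, had 38.9, 38.3 and 6.81 CPM in the UNC0379 libraries, against 97.3, 87.5 and 84.8 CPM in DMSO, with a log2 fold change of -1.42 ± 0.30 (SE, edgeR adjusted p = 0.00125). It did not overlap, and in the 6 libraries of 24 hpa alone its adjusted p was 0.200. Just outside the limit at 0 hpa, Sc4wPfr_259.g33632.t1 had a log2 fold change of -2.48 ± 0.67 (edgeR adjusted p = 0.0157) and Sc4wPfr_381.1.g32192.t1 one of -2.85 ± 0.52 (edgeR adjusted p = 0.000201). The first of these calls was lost in the 6 libraries alone (0.519) and without replicate 1 or 2 of UNC0379 (0.124 and 0.109) or replicate 3 of DMSO (0.130), and without UNC0379 replicate 3 the log2 fold change was -3.89 (0.000327). Just outside the limit on the averaged ratio, MSTRG.9721.1 had -1.17 ± 0.61 and MSTRG.7879.1 -1.47 ± 0.53, neither called (edgeR adjusted p = 0.313 and 0.0919). Just inside that limit, Sc4wPfr_641.g16853.t1, described above, was not called either.

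1 of the 72 has a second transcript of the same gene model with enough counts to be tested. MSTRG.15187.5 had 6.87, 1.53 and 0 CPM in the UNC0379 libraries at 24 hpa, against 57.4, 29.2 and 11.2 CPM in DMSO, with a log2 fold change of -3.16 ± 0.81 (SE, edgeR adjusted p = 0.0103). Its partner MSTRG.15187.1 had a log2 fold change of -2.95 ± 0.85 (edgeR adjusted p = 0.0263). The counts of both are uncertain if they share an end, since how reads that fit both were counted is not given. The partner's averaged ratio over 3, 8 and 12 hpa was -1.45 and its ratio at 0 hpa -0.86, so that it falls among those already lower at 0 hpa. The call on MSTRG.15187.5 is lost in limma-voom (adjusted p = 0.0812), when UNC0379 24 hpa replicate 2 is left out (0.0846) and when DMSO 24 hpa replicate 1 is (0.106), and without UNC0379 24 hpa replicate 1 the log2 fold change was -4.40 (edgeR adjusted p = 0.0145).

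The identifiers place the 60 Sc4wPfr transcripts on 55 scaffolds. 4 scaffolds held 2 or more of them, 9 in all, and no pair had consecutive gene numbers. The nearest pair was Sc4wPfr_10.g18920.t1 and Sc4wPfr_10.g18922.t1, 2 gene numbers apart. At 24 hpa the first had 52.7, 49.0 and 88.6 CPM in the UNC0379 libraries, against 157, 193 and 197 CPM in DMSO, and the second 4.58, 6.13 and 27.2 CPM in the UNC0379 libraries, against 42.4, 35.9 and 72.0 CPM in DMSO. Both were called lower and neither overlapped. This pair was picked out after its values were seen.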

How the data were processed

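3′ ends of polyadenylated RNA (QuantSeq) of regenerating tips were sequenced in 30 libraries, and groups were taken from the sample labels. The deposited values are raw counts of reads per transcript, 1 file per library. Trimmomatic, HISAT2 and HTSeq are named in the submitters' processing notes. Their versions, the genome build, the annotation and the use of strand were not given in the sources used here. For each file, the 5 summary lines, 16.5% to 98.2% of reads as not aligned among them, were kept out of totals. Unique molecular identifiers are not named, so that limits from counts cover counting error only.

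Transcripts were chosen on CPM as the count over the library sum. 1 count is worth 1.23 to 6.81 CPM. For 24 hpa, edgeR 4.0.16 in R 4.3.3 was used: filterByExpr on the 10 groups left 5046 transcripts with 97.2% of assigned reads, TMM factors ran from 0.904 to 1.11, and all 30 libraries entered a robust quasi-likelihood model with a coefficient for each group (common biological coefficient of variation 22.6%). P-values were adjusted by Benjamini-Hochberg over these transcripts, at a threshold of 0.05. The test gives no SE. The SE printed beside a log2 fold change is its absolute value divided by the square root of the F statistic. CPM of single libraries in the text use plain library sums, and overlap at 24 hpa used TMM library sizes. The test was also run on simulated data with the same spread of a transcript in every group, which cannot show how it does where groups differ in spread. With 3 libraries against 3, an exact permutation test of 1 value cannot go below 0.1, and none was run.

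The 72 transcripts, the limits and the comparisons were chosen with earlier results of these data known. Transcripts named are dickkopf-related protein 3, the 5 with the highest DMSO level, the 5 with the lowest averaged ratio, at 24 hpa the 3 called lower with the smallest p, those called higher (none) and the 3 nearest 0, the 2 just inside and outside each limit, those with a second tested transcript in the gene model, and runs of consecutive gene numbers (none). Alternatives were DESeq2 1.42.0, limma-voom (limma 3.58.1), upper-quartile normalization, 2 other filters, thinning, the 24 hpa libraries alone, the replicate number as a block, each library left out, and other settings of the choice. Leaving out 3 libraries together, plain library sums for overlap at 24 hpa, and DMSO 0 hpa replicate 2 left out or TMM library sizes for counts at 0 hpa, were added after seeing the data. Thinning is random and was repeated in 25 draws after single draws were seen to differ. Figures were drawn with matplotlib 3.10.9.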

Additional observations from a re-analysis of the deposited data

Results flagged for a closer look

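Sc4wPfr_1100.g15590.t1 moved in opposite directions at 0 and 24 hpa: the UNC0379 libraries did not overlap DMSO at either time and were higher at 0 hpa and lower at 24 hpa, where the log2 ratio of the means was -0.996. The edgeR log2 fold change at 24 hpa was not called (adjusted p = 0.198). It was -0.45 without the shallow UNC0379 24 hpa replicate 3, also no call. The difference between the times was not tested.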

How the results depend on the processing

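Of the 72 transcripts, 48 to 52 were called lower at 24 hpa in DESeq2, limma-voom, upper-quartile normalization, without a filter and without the 3 libraries that stand apart. With at least 10 counts asked in 15 libraries, 46 of the 62 then tested were. With 1 library left out at a time 41 to 53 were, and 36 of the 51 calls were kept in every such fit. Among these fits and the replicate block below, the share of all transcripts called lower was computed only without the 3 libraries, at 5.74%. The counts of the others therefore have no background beside them and are a description. The count was 10 of 52 in the 24 hpa libraries alone and 10 as the median of 25 draws after thinning (7 to 15, with a median log2 fold change of -1.63 over the draws, from -1.97 to -1.42), where fewer transcripts and fewer libraries or reads are tested. In the 24 hpa libraries alone the spread also comes from these libraries only, and what lowered the counts was not tested. The median ran from -1.96 to -1.85 with 1 library left out, and 0 were called higher in any fit. The share of all transcripts called higher was computed only in the main fit, at 2.08%. With the replicate number as a block, 52 were called lower. To look at pairing, the mean of its group was taken off each library's log2 CPM. These deviations, not the levels themselves, were correlated between UNC0379 and DMSO libraries of the same time. In these deviations, same-numbered libraries at 24 hpa correlated at 0.03, 0.13 and 0.35, where the highest correlation with another number was 0.07, 0.37 and -0.12. At 0 hpa they correlated at 0.05, 0.09 and 0.08, each above the highest with another number (-0.02, -0.05 and 0.01). At each of the other times some same-numbered values lay above and some below. The main fit does not pair libraries by number, and whether the numbers pair them was not tested. At 0 hpa 20 of the 72 had no overlap with UNC0379 lower, 32 without the 3 libraries that stand apart, 28 without DMSO 0 hpa replicate 2 and 10 with TMM library sizes, and 58 to 67 had a ratio below 0 under these settings. The choice gave 65 to 95 transcripts under other pseudocounts, scalings and medians, 67 to 83 with 1 library left out, and 29 with a limit of -0.35 at 0 hpa. Of the 95 with TMM library sizes, 67 were among the 72. With pseudocounts of 1 and 10 CPM 64 and 59 of the 72 were kept, and with medians of 3 libraries 55. As few as 61 of the 72 were kept with 1 library left out. Sc4wPfr_68.g2329.t1 reversed without UNC0379 24 hpa replicate 1 (0.41) or 3 (0.008), without DMSO 24 hpa replicate 3 (0.012) and without the 3 libraries that stand apart (0.19), and Sc4wPfr_641.g16853.t1 without UNC0379 24 hpa replicate 3 (-0.10), and the cause was not tested. In the leave-one-out fits the first of these ran from -3.75 to 0.41 and the second from -0.10 to 0.64. Depth limits the 24 hpa values of transcripts with few counts, since 1 count is worth 6.81 CPM in UNC0379 24 hpa replicate 3.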
